A study of Mus musculus with 6 samples.

Results

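Chchd10 and 9 other genes of cristae structure and mitochondrial dynamics were described in subcutaneous white adipose tissue (scWAT) of mice with and without an adipocyte deletion of Yap and Taz. The 10 genes were Chchd10, Chchd2, Chchd3, Chchd6, Immt, Opa1, Mfn1, Mfn2, Dnm1l and Fis1, taken by symbol from a count table of 55401 genes, of which 16807 passed a filter on low counts. All 10 passed it. The group was chosen by its measured difference between the 2 genotypes, which was known when the genes were listed, so the fold changes of these genes are given as a description and support nothing by themselves.

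RNA was sequenced from scWAT of 3 control mice and 3 YT-AKO mice, all male and 8 weeks old, housed at room temperature on a chow diet. YT-AKO mice carried the genotype Yapfl/fl/Tazfl/fl;AdipoqCre, in which Cre follows the promoter of Adipoq, a gene of mature adipocytes, so that the other cells of the depot keep Yap and Taz. The control group is labelled WT and named YT-FF in the methods of the study, which uses that name elsewhere for tissue with floxed Yap and Taz before any Cre, so by that usage both groups share the floxed alleles. The study asked what the loss of these transcriptional coactivators does to beige fat, and the comparison below asks how the genes that shape mitochondria differed between the genotypes.

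The inner mitochondrial membrane is folded into cristae, the compartments that hold the respiratory chain. The MICOS complex keeps the narrow cristae junctions in place, and CHCHD10 and CHCHD2 are small twin-CX9C proteins of the intermembrane space that associate with it. Whole mitochondria fuse through the mitofusins of the outer membrane and OPA1 of the inner membrane, and divide when the dynamin DRP1, the product of Dnm1l, is recruited from the cytosol. Thermogenic adipocytes are known for many mitochondria with densely packed cristae.

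The libraries held 17740987 to 21838493 counted fragments. Yap1 was lower in the 3 YT-AKO libraries (37.7, 29.0 and 31.3 against 69.1, 57.1 and 66.7 CPM, counts scaled to the library total with TMM factors), a log2 fold change of -0.98 ± 0.17 (SE, n = 3 and 3). Wwtr1, which encodes TAZ, went against its label, with 175.3, 132.9 and 160.5 CPM in those libraries and 77.5, 76.0 and 98.8 in the controls (log2 fold change 0.89 ± 0.18). The study reports a clear decrease of YAP and TAZ protein in YT-AKO scWAT by immunoblot. Counts over whole genes do not separate a deleted exon from the rest, and each direction below is that of the libraries as labelled. Short genes as a whole were higher in YT-AKO. The log2 fold change fell with summed exon length over the 16807 genes (Spearman's rho -0.376, a description across genes that share libraries), and the shortest 25% of genes stood at a median log2 deviation of 0.566 in YT-AKO 2, against 0.134 and 0.138 in YT-AKO 1 and 3 and -0.283 to -0.184 in the controls. The 10 genes differ in length, from 1575 bp for Chchd10 to 11353 bp for Immt, so each fold change is given with its value after a correction for length within each library. In all tested genes, 12.6% were called higher and 9.01% lower in YT-AKO at an adjusted p under 0.05 by edgeR's quasi-likelihood test, and 10.1% and 4.54% after the length correction.

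Chchd10, the gene that names the group, lies on mouse chromosome 10 (mm10, 75933130 to 75937747, plus strand). Its 300-base promoter window is shown because Chchd10 had the largest fold change of the 10 genes. The windows of Chchd6, Opa1 and Fis1 follow because they hold matches to short motifs of factors known for mitochondrial genes, at genes that differed in their fold change. Each runs 5′ to 3′ from 250 bases before to 50 bases after the annotated start, as RefSeq gives it on GRCm38.p6. Capitals mark motif matches, and the windows are chr10:75932880-75933179 (plus), chr6:89595603-89595902 (minus), chr16:29579084-29579383 (plus) and chr5:136953025-136953324 (plus).
Chchd10: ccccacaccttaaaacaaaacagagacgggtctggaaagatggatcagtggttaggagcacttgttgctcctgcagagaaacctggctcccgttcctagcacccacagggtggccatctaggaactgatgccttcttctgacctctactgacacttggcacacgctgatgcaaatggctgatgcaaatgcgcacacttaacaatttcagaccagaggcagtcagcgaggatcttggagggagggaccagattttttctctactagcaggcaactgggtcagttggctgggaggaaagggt
Chchd6: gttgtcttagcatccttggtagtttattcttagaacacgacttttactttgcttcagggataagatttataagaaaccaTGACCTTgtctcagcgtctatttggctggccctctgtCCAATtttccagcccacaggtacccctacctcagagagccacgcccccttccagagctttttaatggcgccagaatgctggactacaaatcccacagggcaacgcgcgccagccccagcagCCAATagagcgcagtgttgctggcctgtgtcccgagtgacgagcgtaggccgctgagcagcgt
Opa1: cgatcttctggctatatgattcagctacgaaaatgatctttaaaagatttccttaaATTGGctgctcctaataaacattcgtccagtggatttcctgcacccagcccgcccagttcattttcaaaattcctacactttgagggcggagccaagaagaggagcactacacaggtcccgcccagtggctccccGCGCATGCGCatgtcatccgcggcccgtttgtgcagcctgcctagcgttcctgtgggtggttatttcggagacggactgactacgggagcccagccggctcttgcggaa
Fis1: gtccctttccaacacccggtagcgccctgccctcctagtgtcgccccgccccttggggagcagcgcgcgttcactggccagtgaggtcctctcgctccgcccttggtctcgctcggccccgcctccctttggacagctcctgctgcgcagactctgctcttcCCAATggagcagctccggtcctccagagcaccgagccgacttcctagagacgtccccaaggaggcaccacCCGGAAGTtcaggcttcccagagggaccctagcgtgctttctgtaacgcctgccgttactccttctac

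Exact matches on both strands were searched for 7 motifs in the windows of the 9 genes that the table held (13 windows, since Mfn2, Dnm1l and Fis1 have several starts). Chchd2 was not among them. The window of Chchd10 held none of the 7 motifs. It also held 5 CpG dinucleotides, the fewest of the 13 windows, where the others held 8 to 33, and 43.6% of all windows in the table held 5 or fewer. The half-site of the oestrogen-related receptors, AAGGTCA, was found in Chchd6 alone, 171 bases before the start on the minus strand, and in 4.72% of all 32851 promoter windows. The NRF1 motif GCGCATGCG was found in Opa1 alone, 59 bases before the start, where its forward and reverse forms overlap (1.75% of all windows). The ETS and GABP motif CCGGAAGT was found in 3 of the 13 windows (3.89% of all windows). In Fis1 it lay 18 bases before the first start and 19 bases after the second start, and in Mfn1 44 bases before the start. TEAD proteins are the DNA-binding partners of YAP and TAZ, and their motif GGAATG was in none of the 13 windows and in 14.7% of all windows. The YY1 motif AAGATGGCG (1.40% of all windows) and the C/EBP motif TTGCGCAA (0.183%) were in none either. CCAAT was in 7 of the 13 windows, which belong to 7 of the 9 genes, and in 37.4% of all windows. A match describes letters and not a bound site.

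Chchd10 was higher in every library labelled YT-AKO than in any control. It stood at 72.0, 63.6 and 64.8 CPM in YT-FF 1, 2 and 3 and at 376.7, 621.8 and 340.6 CPM in YT-AKO 1, 2 and 3. YT-AKO 2 was the highest library, and the lowest YT-AKO library lay far above the highest control. The log2 fold change was 2.74 ± 0.26 (SE), a 6.68-fold difference with an adjusted p of 0.00782 by edgeR, and lay at percentile 99.5 of all tested genes. After the length correction it was 2.33 (adjusted p = 0.00623 by edgeR). The rule of the study, a log2 fold change over 1 at an adjusted p under 0.01 by DESeq2, was passed by 4 of the 10 genes with DESeq2 here (Chchd10, Chchd2, Chchd6 and Fis1) and by 1339 genes in all. With edgeR 15 genes passed the same cutoffs, and Chchd10 was the one of the 10 among them. Of the exon bases of Chchd10, 11.4% are shared with Mmp11 and Gm867, where fragments are not counted for either gene. Mmp11 was at 3.78 to 7.98 CPM and Gm867 at 0.0515 to 0.886 CPM in the 6 libraries.

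**Figure D1:**
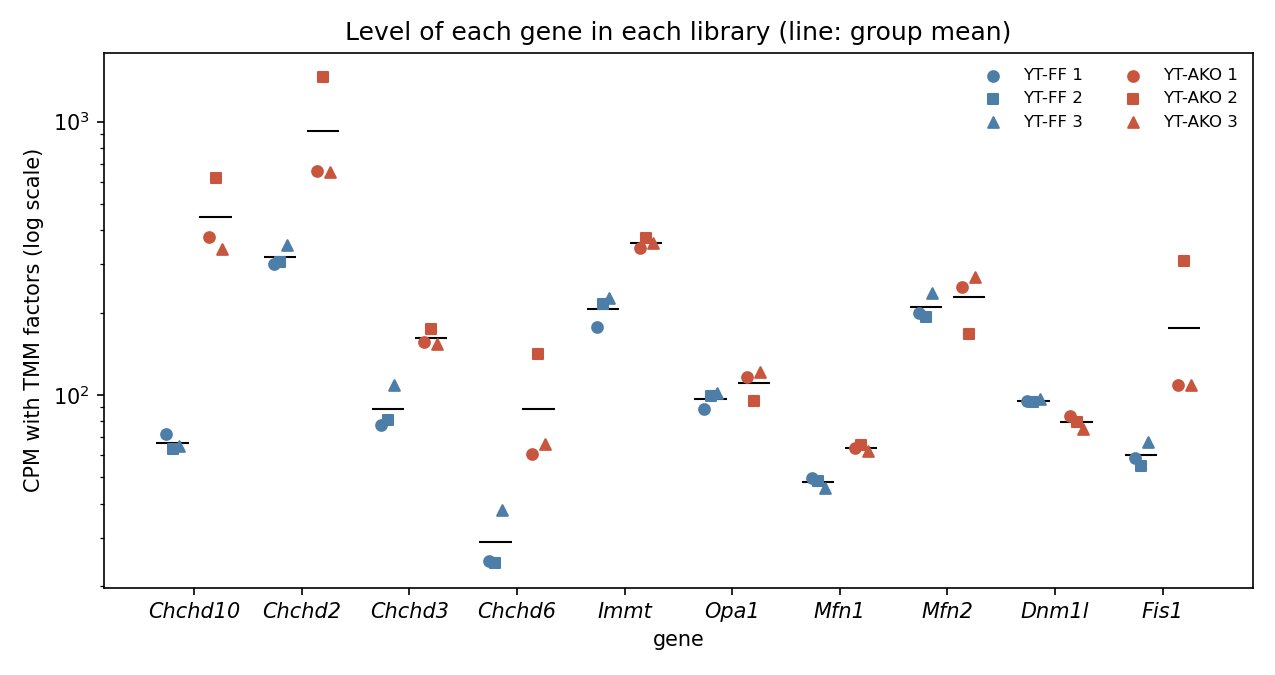
CPM with TMM factors (log axis) of the 10 genes in each of the 6 libraries, 3 YT-FF in blue and 3 YT-AKO in red, with a line at each group mean. Chchd10 is at 63.6 to 72.0 CPM in YT-FF and 340.6 to 621.8 CPM in YT-AKO. YT-AKO 2 is the highest library for Chchd10, Chchd2, Chchd3, Chchd6, Immt, Mfn1 and Fis1.

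Chchd2 (chromosome 5, 129881156 to 129887470, minus strand), the paralog of Chchd10 whose product acts in the intermembrane space and as a regulator of respiratory genes, had the highest level per length of the 10 genes in both groups, as given below in TPM. It stood at 301.8, 305.9 and 354.3 CPM in the controls and at 656.9, 1453 and 653.5 CPM in YT-AKO, with no overlap. The log2 fold change was 1.52 ± 0.34, or 1.24 after the length correction. Of the 50-base words of its exons, 18.5% also occur in transcripts of other genes, among them Zbed5 and the pseudogenes Gm12350 and Chchd2-ps, so part of its fragments could not be placed and its level is uncertain. Chchd10 differed more than its paralog. Per kilobase, the ratio of Chchd10 to Chchd2 was 0.344, 0.299 and 0.264 in the controls and 0.826, 0.617 and 0.751 in YT-AKO, a ratio of means of 2.42 that does not depend on the library factors.

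The 3 MICOS genes of the group were all called higher in YT-AKO. With library totals in place of TMM factors, Immt and Chchd3 were not called (adjusted p = 0.0735 and 0.0570 by edgeR). Immt (chromosome 6, 71831331 to 71877388, plus strand) encodes mitofilin (MIC60), the core of MICOS, and stood at 177.6, 214.3 and 225.2 CPM in the controls and at 344.1, 375.4 and 358.5 CPM in YT-AKO. Its log2 fold change was 0.80 ± 0.17 and 1.30 with the length correction. Chchd3 (chromosome 6, 32790976 to 33060260, minus strand) encodes MIC19, which binds mitofilin. It stood at 77.2, 80.8 and 108.4 CPM in the controls and at 155.6, 174.4 and 153.9 CPM in YT-AKO (log2 fold change 0.86 ± 0.18, length corrected 0.73). Chchd6 (chromosome 6, 89383146 to 89595652, minus strand) encodes the related subunit MIC25. It stood at 24.6, 24.2 and 38.0 CPM in the controls and at 60.6, 140.7 and 65.9 CPM in YT-AKO (log2 fold change 1.62 ± 0.36, length corrected 1.41). None of the 3 overlapped between groups, and YT-AKO 2 was the highest library of each. The ratio of the paralogs Chchd3 and Chchd6 differed without overlap. Per kilobase, Chchd3 was 2.74, 2.91 and 2.48 times Chchd6 in the controls and 2.23, 1.08 and 2.03 times in YT-AKO.

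None of the 3 fusion genes was called in the uncorrected fit of all 6 libraries. Opa1 (chromosome 16, 29579334 to 29654884, plus strand) encodes the dynamin of the inner membrane that fuses it and holds cristae junctions tight, and was at 88.6, 99.3 and 101.3 CPM in the controls and at 116.6, 94.6 and 121.7 CPM in YT-AKO. The groups overlapped through YT-AKO 2, and the log2 fold change was 0.20 ± 0.16 (adjusted p = 0.366 by edgeR). With the length correction it was 0.53 (adjusted p = 0.0424 by edgeR). Mfn1 (chromosome 3, 32529465 to 32579239, plus strand) and Mfn2 (chromosome 4, 147873599 to 147904704, minus strand) encode the mitofusins, the GTPases that tether and fuse outer membranes. Mfn1 was at 49.8, 48.3 and 45.7 CPM in the controls and at 63.7, 65.4 and 62.3 CPM in YT-AKO. Its groups did not overlap, with a log2 fold change of 0.41 ± 0.13 that missed the threshold (adjusted p = 0.0607 by edgeR) and was 0.64 after the length correction (adjusted p = 0.0312 by edgeR). Mfn1 was also called with the correction for GC content (0.60, adjusted p = 0.0312 by edgeR) and without YT-AKO 2 (0.39, adjusted p = 0.0294). It was not called by DESeq2 (adjusted p = 0.0844) or with a replicate block (adjusted p = 0.149 by edgeR). Nor was it called with any other library left out (adjusted p = 0.0945 to 0.210 by edgeR). Mfn2 overlapped, at 200, 192.0 and 235.2 CPM in the controls and at 249.0, 166.9 and 270.5 CPM in YT-AKO. Its log2 fold change was 0.13 ± 0.22 (adjusted p = 0.675 by edgeR), and 0.27 with the length correction. With library totals in place of TMM factors, Opa1 was at -0.11, Mfn1 at 0.08 (adjusted p = 0.73 by edgeR) and Mfn2 at -0.17. Mfn1 per Mfn2 and Mfn2 per Opa1 both overlapped between the genotypes, with ratios of means of 1.26 and 0.940.

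Of the 2 fission genes, Fis1 was called higher and Dnm1l was not called. Dnm1l (chromosome 16, 16312230 to 16358959, minus strand) encodes the dynamin that constricts mitochondria, and was the only one of the 10 genes with a lower mean CPM in YT-AKO. It stood at 95, 93.7 and 96.3 CPM in the controls and at 83.6, 79.6 and 74.9 CPM in YT-AKO, which do not overlap. The log2 fold change was -0.26 ± 0.14 (adjusted p = 0.187 by edgeR) and -0.10 with the length correction, while a correction for GC content gave 0.034. Fis1 (chromosome 5, 136953275 to 136966234, plus strand), the gene of a small outer membrane protein that binds fission and mitophagy factors, was at 59.0, 54.7 and 67.4 CPM in the controls and at 108.3, 309.1 and 108.6 CPM in YT-AKO. Here YT-AKO 2 stood far above the other two YT-AKO libraries, and the log2 fold change of 1.54 ± 0.41 was 0.85 without it. The adjusted p of Fis1 was 0.0379 by edgeR and 0.0626 with the length correction. Per kilobase, Fis1 was 1.88, 1.77 and 2.12 times Dnm1l in the controls and 3.93, 11.8 and 4.40 times in YT-AKO.

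**Figure D2:**
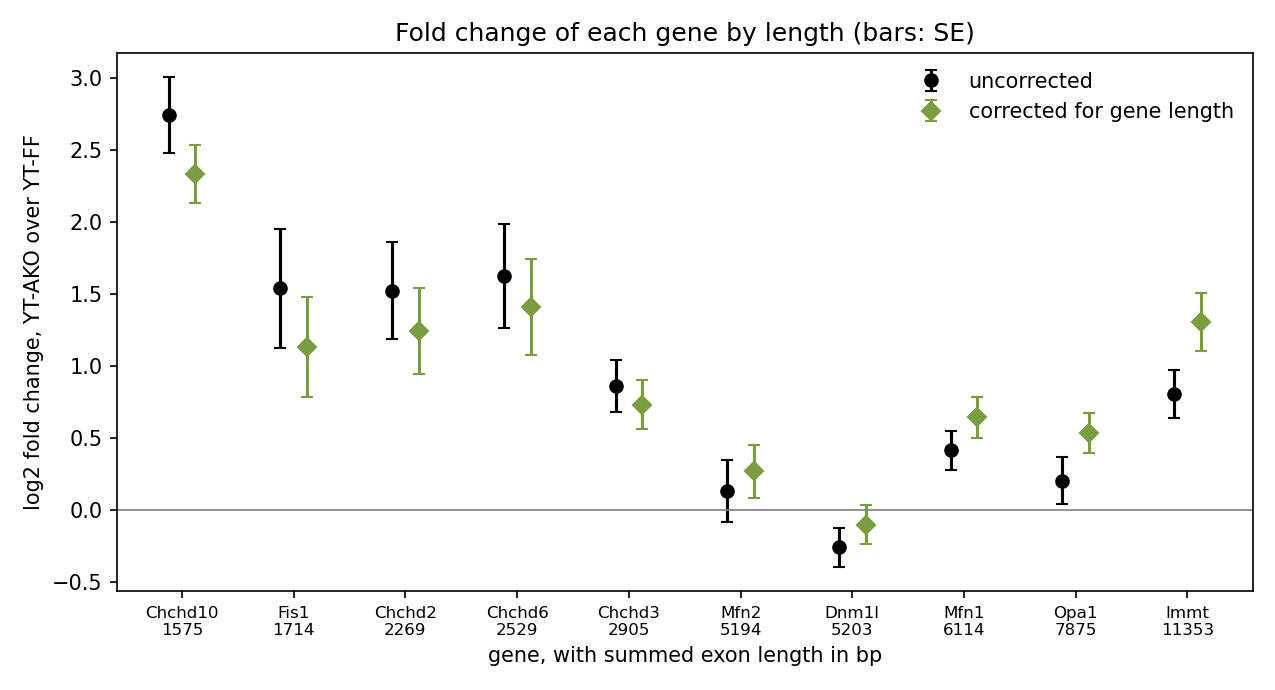
Log2 fold change of YT-AKO over YT-FF with its SE for the 10 genes, in order of summed exon length (bp, below each name), before (black circles) and after (green diamonds) correction for gene length. The correction lowers the value of Chchd10 from 2.74 to 2.33 and raises that of Immt from 0.80 to 1.30.

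Of the 10 genes, 6 were called higher (Chchd10, Chchd2, Chchd3, Chchd6, Immt and Fis1) and 0 lower, beside backgrounds of 12.6% and 9.01%. The adjusted p by edgeR was 0.0254 for Chchd2, 0.0232 for Chchd3, 0.0255 for Chchd6 and 0.0227 for Immt. DESeq2 also called 6 of them higher and 0 lower, beside 15% and 11.7% of all genes it tested. At an unadjusted p under 0.05 in edgeR 7 were higher and 0 lower, where 3728 and 3124 of all 16807 tested genes were so. With the length correction 7 were called higher and 0 lower, beside 10.1% and 4.54%. In 7 genes every YT-AKO library lay above every control, and in 1 below, where 25.7% and 25.8% of all tested genes did so. Because the genes were listed with this contrast in view, nothing is read from these shares. The median log2 fold change of the 10 genes was 0.83, against -0.02 over all tested genes. Leaving out YT-FF 1 or YT-FF 2 left 0 of the 10 called, with adjusted p of 0.0854 and 0.103 by edgeR for Chchd10 and log2 fold changes of 2.79 and 2.70. Those fits called 0 and 2 genes of the whole table, with 4665 and 4507 at an unadjusted p under 0.05. Without YT-FF 3 the number of the 10 genes called was 3, beside 4.03% of all genes called higher and 3.02% lower.

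Per length, the order of levels began with Chchd2 and Chchd10 in both genotypes. In TPM, counts divided by exon length and then scaled to the same sum in every library, the controls ran from Chchd2 at 535.5 ± 26.1 (SD, n = 3) through Chchd10 at 161.2 ± 13.7, Mfn2 at 152.4 ± 9.48, Fis1 at 133.3 ± 7.97, Chchd3 at 115.5 ± 16.9, Dnm1l at 69.4 ± 2.30, Immt at 68.7 ± 7.59, Opa1 at 46.5 ± 3.26 and Chchd6 at 43.1 ± 9.63 to Mfn1 at 29.8 ± 2.47. Chchd10 and Mfn2, Fis1 and Chchd3, Dnm1l and Immt, and Opa1 and Chchd6 overlapped as neighbours in that order. In YT-AKO the order was Chchd2 at 904.1 ± 189.1 TPM, Chchd10 at 648.9 ± 54.3, Fis1 at 221.5 ± 81.9, Chchd3 at 132.9 ± 24.1 and Mfn2 at 110.5 ± 47.1, with Chchd6, Immt, Dnm1l, Opa1 and Mfn1 below. Chchd3, Mfn2, Chchd6 and Immt overlapped as neighbours there, as did Dnm1l, Opa1 and Mfn1. In TPM, Chchd10 overlapped with Mfn2 in the controls and with none of the other 9 genes in YT-AKO. In CPM per kilobase with TMM factors it also overlapped with Chchd2 in YT-AKO, at 216.2 to 394.8 against 288.0 to 640.3. The 10 genes summed to 1311, 1338 and 1417 TPM in the controls and to 2200, 2513 and 2094 TPM in YT-AKO. The share of Chchd10 in that sum was 13.4, 11.9 and 10.5% in the controls and 30.3, 27.5 and 28.1% in YT-AKO.

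**Figure D3:**
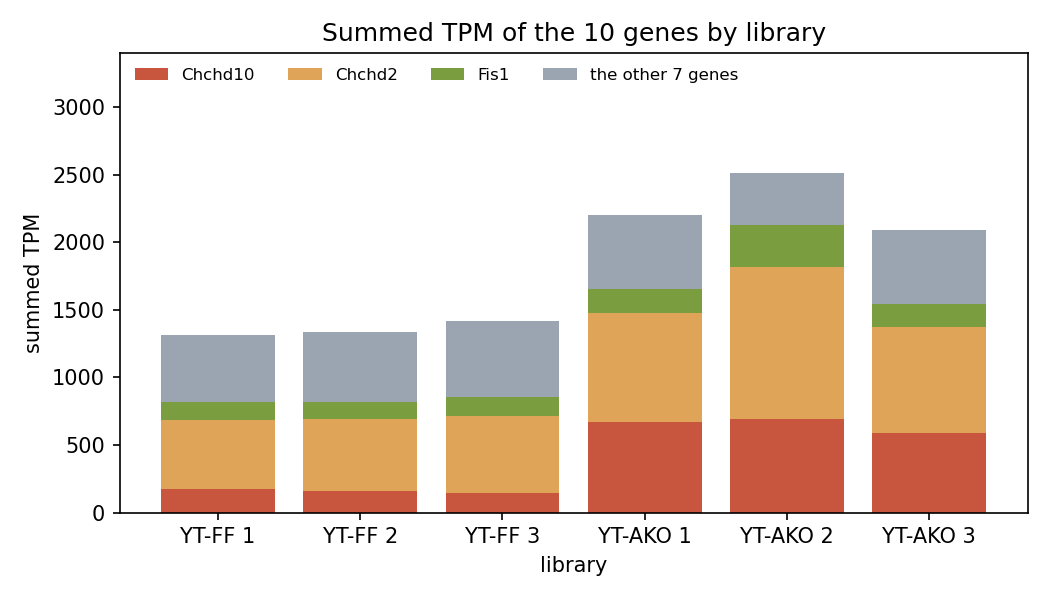
Summed TPM of the 10 genes in each library as stacked bars from 0, split into Chchd10, Chchd2, Fis1 and the other 7 genes. The bars reach 1311 to 1417 TPM in YT-FF and 2094 to 2513 TPM in YT-AKO, and the part of Chchd10 grows from 10.5 to 13.4% of the bar to 27.5 to 30.3%.

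TPM set each library to the same sum of counts per exon length. Between libraries it differs from CPM by a factor that is the same for every gene of a library. On that scale short and long genes alike stood lower in YT-AKO, relative to the controls, than in CPM. The short gene Fis1 had means of 60.3 and 175.3 CPM in YT-FF and YT-AKO, and of 133.3 and 221.5 TPM. Immt overlapped in TPM (60.1, 74.5 and 71.6 in the controls, 84.5, 57.9 and 85.9 in YT-AKO). Opa1 was at 43.3, 49.8 and 46.4 TPM in the controls and at 41.3, 21.1 and 42.0 TPM in YT-AKO, all below the lowest control. Dnm1l was at 70.2, 71.1 and 66.8 TPM in the controls and at 44.8, 26.8 and 39.1 TPM in YT-AKO. Chchd10 kept its separation, at 175.7, 159.4 and 148.5 TPM in the controls and 666.9, 691.9 and 587.9 TPM in YT-AKO. The means of Opa1, Mfn1 and Mfn2 were higher in YT-AKO in CPM and lower in TPM, and those of the other 7 genes had the same direction on both scales.

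The other genes of the same machinery were taken from lists of known members, written with earlier results of these data known. Together these lists, without the content and cell type markers, held 75 genes, of which 73 were tested. Over all tested genes 12.6% were called higher and 9.01% lower, the background for each list and marker set below. Of the 10 other subunits of MICOS and of the bridge to the outer membrane (MIB), 8 were called higher and 1 lower, with a median log2 fold change of 1.16. Micos10, which encodes the MICOS subunit MIC10 that bends the membrane, had the highest value. It stood at 70.2, 62.3 and 89.1 CPM in the controls and at 187.3, 619.2 and 182.0 CPM in YT-AKO (log2 fold change 2.16 ± 0.49). Micos13, another subunit, followed with 1.54 ± 0.26. The metaxin gene Mtx3 was called lower at -0.49 ± 0.14 (adjusted p = 0.0489 by edgeR), which the length correction moved to -0.16 (adjusted p = 0.489). DESeq2 did not call it either (adjusted p = 0.0503). Armc1 did not pass, at 0.26 ± 0.15.

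Among 13 inner membrane proteases, scaffolds and ATP synthase dimer subunits, 10 were called higher and 0 lower (median 1.02). Atp5k and Usmg5 encode small subunits of the ATP synthase at the sites where its dimers bend cristae edges. Atp5k was at 20.2, 14.2 and 30.0 CPM in the controls and at 86.6, 274.6 and 90.0 CPM in YT-AKO. Its log2 fold change of 2.81 ± 0.51 was the one value above that of Chchd10 among the 91 tested mitochondrial genes of these lists. Without YT-AKO 2 it was 2.04, below the 2.42 of Chchd10 in the same fit. Usmg5 stood at 1.95 ± 0.40. The proteases that cut OPA1 did not pass, with 0.36 ± 0.17 for Oma1 and -0.13 ± 0.15 for Yme1l1.

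Among 18 other twin-CX9C proteins and the enzymes that import them, 13 were called higher and 0 lower, with the highest median of these lists at 1.42. Cmc2, a factor of complex IV assembly, was at 9.85, 8.17 and 13.0 CPM in the controls and at 27.3, 96.3 and 32.8 CPM in YT-AKO (2.34 ± 0.49). Ndufs5, a complex I subunit, was at 33.1, 27.4 and 71.4 CPM in the controls and at 142.8, 384.0 and 92.6 CPM in YT-AKO (2.23 ± 0.58, and 1.42 ± 0.38 without YT-AKO 2). Cox17, the copper chaperone of complex IV, did not pass at -0.24 ± 0.23, nor did Coa4 at 0.33 ± 0.26. Many of these genes are short, with a median exon length of 1885 bp against 3888 bp over all tested genes, and 11 were called higher after the length correction.

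Cardiolipin, the lipid of the inner membrane, had 5 of 9 listed genes called higher and 0 lower (median 0.56). Triap1, whose product moves its precursor between membranes with PRELID1, stood at 1.32 ± 0.30, and Ptpmt1, the phosphatase of its synthesis, at 1.26 ± 0.26. Pnpla8 and Lclat1 did not pass, at 0.20 ± 0.22 and -0.41 ± 0.17.

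The other genes of dynamics had medians nearer 0. Of 14 other fission genes, 13 were tested and 4 were called higher, 0 lower (median 0.29). Mtfp1, an inner membrane fission protein, was at 11.3, 6.86 and 10.7 CPM in the controls and at 23.3, 32.0 and 23.1 CPM in YT-AKO (1.44 ± 0.25). The ubiquitin ligase gene Mul1 stood at 0.96 ± 0.17, while Dnm2 at -0.12 ± 0.16 and Mtfr2 at -0.74 ± 0.66 did not pass. Gdap1 was not tested. Of 4 other fusion genes, 3 were tested and 0 were called in either direction by edgeR, where DESeq2 called 1 lower (Miga1, adjusted p = 0.0418). They were Miga2 at 0.36 ± 0.19, Usp30 at 0.03 ± 0.15 and Miga1 at -0.83 ± 0.30, and Pld6 was not tested. Of 7 motility genes 1 was called higher and 0 lower, with a median of -0.04. Rhot2, a GTPase that links mitochondria to motors, stood at 0.67 ± 0.20, Kifbp at 0.23 ± 0.15, Kif5b at -0.37 ± 0.16 and Trak2 at -0.41 ± 0.14. With the length correction 0 motility genes were called in either direction (adjusted p = 0.0526 by edgeR for Rhot2) and their median was 0.23. The corrected medians were 0.43 for the fission genes (5 called higher, beside 10.1% of all genes) and 0.25 for the fusion genes (0 called). Those of the other MICOS and MIB genes and the other twin-CX9C genes were 1.06 and 1.32. The difference between lists was not tested. In 11 of the 73 tested genes of these lists the fold was over 1.5 times that without YT-AKO 2, among them Micos10 (1.32 on the log2 scale without it), Usmg5 (1.33) and Cmc2 (1.54), all 3 still called. Where a list above had 0 genes called lower, the number lower at an unadjusted p under 0.05 was also 0, except for 1 cardiolipin, 1 fusion and 1 motility gene, and DESeq2 called 0 of them lower but for that fusion gene.

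**Figure D4:**
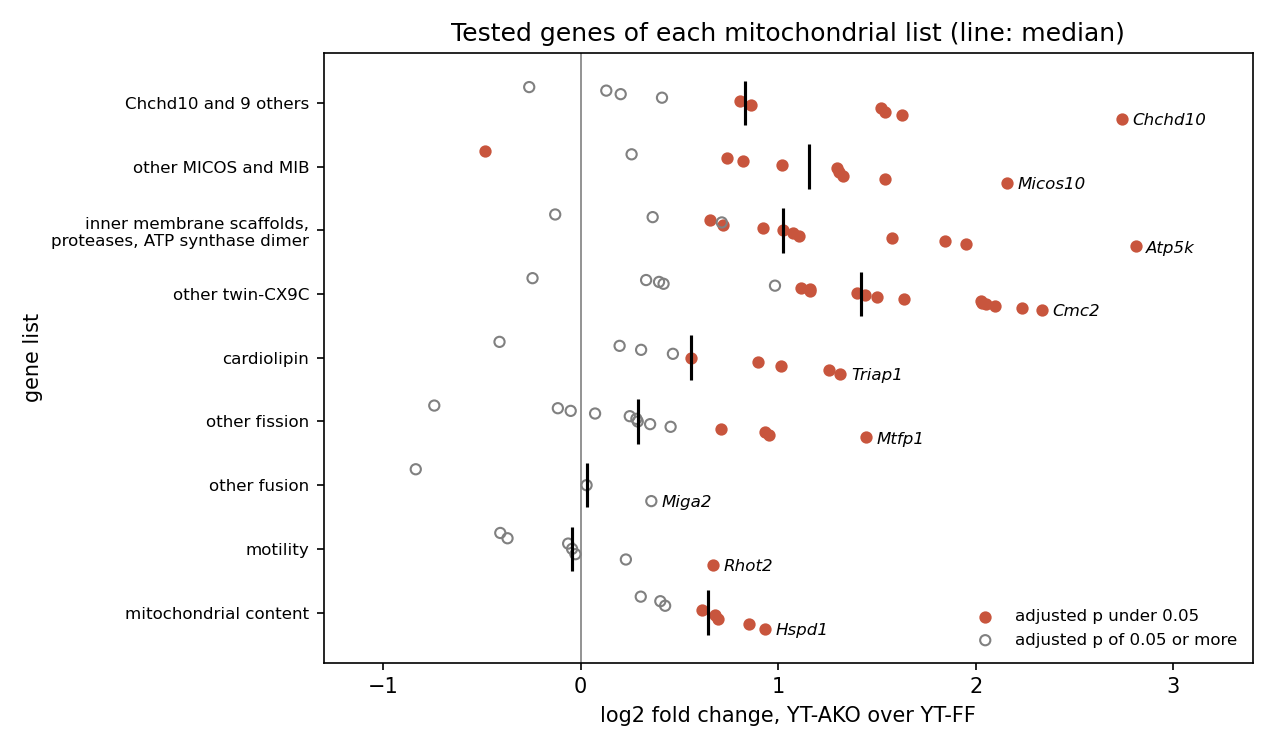
Log2 fold change of YT-AKO over YT-FF, uncorrected for length (x axis), of every tested gene in 9 lists of mitochondrial genes (rows). Points are filled where the adjusted p by edgeR was under 0.05, with a line at each median. The medians of the other MICOS and MIB genes and of the other twin-CX9C genes lie at 1.16 and 1.42, those of the other fusion and the motility genes at 0.03 and -0.04, and Chchd10 and Atp5k lie farthest to the right.

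Markers of mitochondrial content and of cell types moved with the same libraries, and their part in the differences of the 10 genes was not tested. In bulk tissue, a change in the number of cells of a type and a change in RNA per cell cannot be told apart. Of 8 mitochondrial content markers, 5 were called higher and 0 lower (median 0.65). Their summed level was 1522 to 1849 CPM in the controls and 2331 to 2665 CPM in YT-AKO. Hspd1 and Vdac3 had the highest values (0.93 ± 0.18 and 0.85 ± 0.20), and Tfam and Vdac1 the lowest (0.40 ± 0.22 and 0.30 ± 0.25, neither called). Per 1000 CPM of these markers, Chchd10 was at 47.3, 40.8 and 35.1 CPM in the controls and at 141.4, 266.8 and 131.7 CPM in YT-AKO, a ratio of means of 4.38 without overlap. Chchd2, Chchd6 and Fis1 also did not overlap per content marker (ratios of 1.92, 2.08 and 1.95), but YT-AKO 2 was far above the other libraries in each. Fis1 per 1000 CPM of these markers was at 38.7, 35.1 and 36.4 CPM in the controls and at 40.7, 132.6 and 42.0 CPM in YT-AKO. Without YT-AKO 2 the ratios were 1.28 for Chchd2, 1.39 for Chchd6, 1.12 for Fis1 and 3.33 for Chchd10. In all 6 libraries Chchd3 and Immt overlapped (1.20 and 1.14). Opa1, Mfn2 and Dnm1l were lower per content marker in every YT-AKO library, with ratios of 0.744, 0.706 and 0.541. None of the 37 genes encoded by mitochondrial DNA had a count in any library, so no level of that kind was measured.

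Beige and brown adipocyte markers had a median log2 fold change of 3.94. Of 7, 6 were called higher and 0 lower, and their summed level was 162.8, 167.1 and 233.4 CPM in the controls and 1656, 3613 and 1792 CPM in YT-AKO. Elovl3, a fatty acid elongase of thermogenic fat, and Ucp1, the uncoupling protein, had the highest log2 fold changes at 5.90 ± 0.76 and 5.27 ± 0.51. Dio2 stood at 3.06 ± 0.52 and Ppargc1a, the coactivator of mitochondrial biogenesis, at 0.02 ± 0.33 without passing. Chchd10 per 1000 CPM of these markers was lower in YT-AKO, at 227.5, 172.1 and 190.0 CPM against 442.3, 380.6 and 277.8 CPM. Of the brown depot markers, Zic1 was at 0 in all 6 libraries and Lhx8 stood at 3.09 to 6.46 CPM in the controls and 2.42 to 4.73 CPM in YT-AKO. The 6 adipocyte markers were all detected, with a summed level of 8840 to 13620 CPM in the controls and 15320 to 26320 CPM in YT-AKO. Fabp4 held 4072 to 7199 and 9159 to 20230 CPM of these sums. It alone of the 6 was called, at 1.34 ± 0.40, and not with the length correction (adjusted p = 0.0542 by edgeR). Adipoq stood at 0.43 ± 0.22, Pparg at 0.29 ± 0.31 and Lep at -0.13 ± 0.40. Chchd10 per 1000 CPM of the adipocyte markers was 7.93, 7.19 and 4.76 CPM in the controls and 24.6, 23.6 and 18.6 CPM in YT-AKO.

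Chchd10 is also high in skeletal muscle, and muscle markers were uneven between libraries. Their summed level was 428.1, 115.7 and 166.4 CPM in the controls and 3155, 485.4 and 210.7 CPM in YT-AKO. The sum of YT-AKO 3 lay within the control range, and its Chchd10 level was 340.6 CPM. Some single markers of that library lay outside it. Acta1 was above, at 197.6 CPM against 41.1 to 131.4 CPM in the controls, and Tnni2 below, at 1.95 against 3.47 to 17.7 CPM. Without YT-AKO 1, the library with the highest muscle sum, the log2 fold change of Chchd10 was 2.86 ± 0.29. The part of muscle in the Chchd10 level was not tested. Of the 9 muscle markers, 8 were tested and 1 was called higher, Acta1 at 2.67 ± 0.70, and not with the length correction (adjusted p = 0.0613 by edgeR), while Tnni2 stood at 3.21 ± 1.31, Mb at -0.18 ± 0.90 and Myh1 at -0.26 ± 0.97, and Myh2 was not tested. Macrophage markers summed to 981.5 to 1174 CPM in the controls and 1319 to 1659 CPM in YT-AKO. Lyz2 held 700.5 to 820.5 and 935 to 1342 CPM of these sums. Its length-corrected log2 fold change was 0.10 (adjusted p = 0.709 by edgeR). Of the 5 markers 0 were called, by DESeq2 too, and 1 stood at an unadjusted p under 0.05 (Lyz2 0.53 ± 0.21, Cd68 0.42 ± 0.24, Mrc1 0.20 ± 0.16, Csf1r 0.16 ± 0.17). Of the B cell markers, Ms4a1 was called lower at -1.17 ± 0.16, while Cd79a stood at -0.14 ± 0.21 and Cd79b at -0.08 ± 0.33 without passing. Endothelial markers had 1 of 3 called lower (Kdr -0.78 ± 0.20, with Cdh5 at -0.51 ± 0.26 and Pecam1 at -0.20 ± 0.15), a call lost with the length correction (-0.40, adjusted p = 0.104 by edgeR), and summed to 479.5 to 495.0 and 305.6 to 423.8 CPM. Fibroblast markers had 0 of 3 called by uncorrected edgeR or DESeq2, 1 with the length correction (Dcn, 0.59, adjusted p = 0.0451 by edgeR) and 0 at an unadjusted p under 0.05 in the uncorrected fit (Col1a1 0.40 ± 0.34, Dcn 0.39 ± 0.18, Pdgfra 0.11 ± 0.32) and summed to 1408 to 1885 and 1404 to 2613 CPM.

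**Figure D5:**
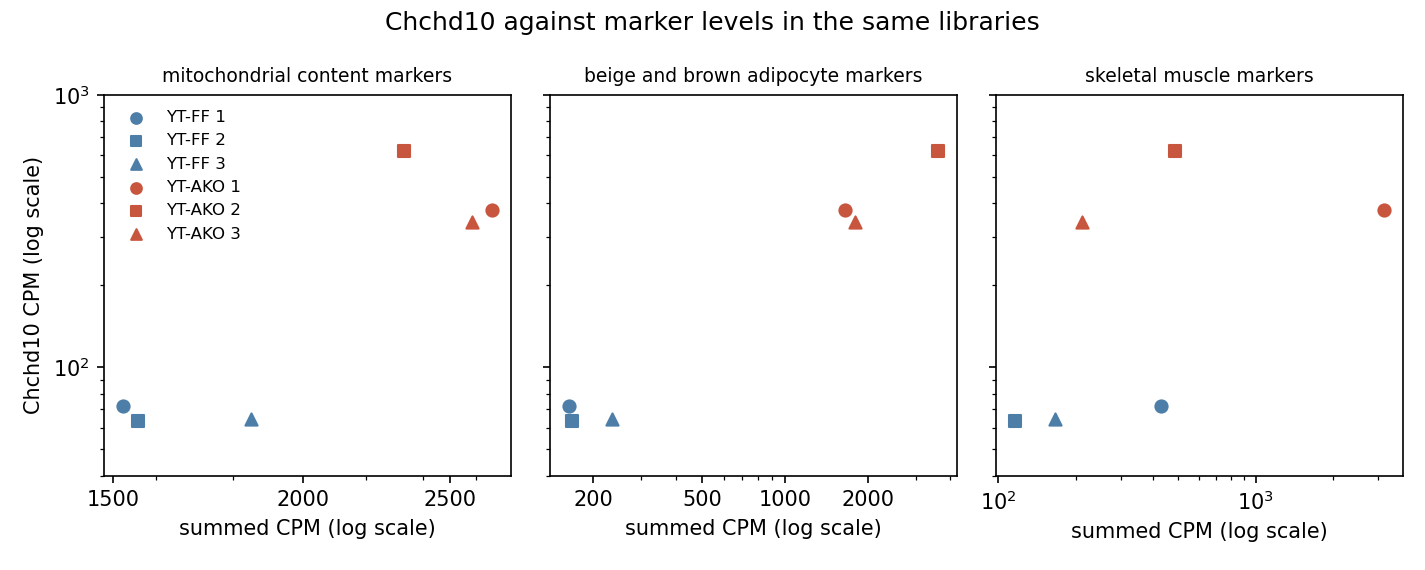
CPM of Chchd10 (y axis, log scale) against the summed CPM of 8 mitochondrial content markers, 7 beige and brown adipocyte markers and 9 skeletal muscle markers (x axes, log scale) in the 6 libraries, 3 YT-FF in blue and 3 YT-AKO in red. YT-AKO 2 is highest in Chchd10 and in the beige markers, YT-AKO 1 is highest in the muscle markers, and YT-AKO 3 has 340.6 CPM of Chchd10 at a muscle level of 210.7 CPM.

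Over the 6 libraries, the genes whose log2 CPM followed Chchd10 most closely were Scamp3, C1qbp, Timm44, Alox5ap and Fbxo31, with Pearson's r of 0.997, 0.996, 0.996, 0.995 and 0.995 among 10336 genes with a mean of at least 10 CPM. The 6 libraries form 2 groups, so a value near 1 is reached by any gene that separates them in like steps, and no p is given. Timm44 encodes a subunit of the inner membrane import motor and C1qbp a protein of the mitochondrial matrix. Among the other 9 genes, r with Chchd10 ran from -0.907 for Dnm1l and 0.0367 for Mfn2 to 0.950 for Immt and 0.983 for Mfn1.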

How the data were processed

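RNA of scWAT from 3 YT-FF (labelled WT) and 3 YT-AKO mice was analysed, grouped by the genotype in the labels. The study's methods give 3 mice per group. The authors sequenced paired ends, mapped the reads to mm10 (GRCm38) with HISAT2 and counted fragments over exons with featureCounts 2.0.1 and GENCODE vM25. The deposited values are raw counts per gene. Per the file headers no strand was set, and fragments in several genes were left out. Of 55401 genes, 55141 were matched by identifier to symbols.

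Counts were analysed in R 4.3.3 with edgeR 4.0.16 (TMM, filterByExpr with a minimum count of 10 and total of 15, quasi-likelihood test, Benjamini-Hochberg over 16807 genes, biological coefficient of variation 0.288). TPM used summed exon lengths. For the length correction, each library's log2 deviations were smoothed over length by a spline (6 degrees of freedom). Fold changes are YT-AKO over YT-FF. Alternatives were DESeq2 1.42.0, limma-voom (limma 3.58.1), other scalings and filters, a replicate block, corrections for length and GC content, and leaving out each library. The scripts were tested on simulated data. Totals of 17740987 to 21838493 put 3 counts at 0.128 to 0.177 CPM, which covers counting error only.

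The 10 genes and the lists were chosen with earlier results of these data known. Named genes are the 10, up to 2 highest and 2 lowest of each other list, those not tested, the 5 most like Chchd10, and Yap1 and Wwtr1. Zbed5, the pseudogenes with words of Chchd2, and Mmp11 and Gm867 were added because they share sequence with a gene of the group. Promoters come from RefSeq (GRCm38.p6), which held 9 of the 10 genes. A gene that this rule names is not reported here.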

Additional observations from a re-analysis of the deposited data

How the results depend on the processing

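The log2 fold change of Chchd10 was positive in all 19 alternatives, from 2.17 to 2.91. It passed an adjusted p of 0.05 in all but 2 of them, which left out YT-FF 1 (2.79, adjusted p = 0.0854 by edgeR) or YT-FF 2 (2.70, adjusted p = 0.103). Leaving out 1 library at a time gave 2.42 to 2.91 for Chchd10 and 0 to 7 of the 10 genes called higher. The share of all genes called higher in those fits ran from 0% without YT-FF 1 or YT-FF 2 to 16.9% without YT-AKO 2. The fit without YT-AKO 2 was the one with 7 of the 10, and it called 14% of all genes lower. A replicate block gave 1 of the 10 genes called, alone or with the length correction, beside 0.143% and 0.351% of all genes called higher. Deviations of same-numbered libraries correlated at 0.126, -0.118 and -0.0893, and those of differently numbered libraries at -0.140 to 0.160. With 3 libraries per group these values cannot show whether the numbers pair the libraries. Library totals alone put the median of all genes at -0.34 on the log2 scale. With them 4 of the 10 were called higher and 1 lower (Dnm1l), beside 6.77% and 16.8% of all genes. Immt (0.48, adjusted p = 0.0735 by edgeR) and Chchd3 (0.53, adjusted p = 0.0570) lost their calls. Opa1 turned to -0.11 and Mfn2 to -0.17. DESeq2 and the fit without a filter put that median at -0.12. Mfn2 ran from -0.0011 without YT-AKO 3 to 0.31 without YT-AKO 2, and Dnm1l was at 0.034 with a GC correction, chosen after seeing the data. The 1 gene called lower in the other lists (Mtx3) became 0 with the length correction and 2 without YT-AKO 2, and DESeq2 called Miga1 in its place. Over all genes, 24 were called higher and 9 lower with the block, and 1137 and 2828 with library totals. The causes were not tested. The groups of 3 limit every statement, and the correction for gene length moves the values of short and long genes. Library YT-AKO 2 moves those of Chchd2, Chchd6, Fis1 and 11 genes of the other lists.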
